A study of Mus musculus with 3 samples.

Results

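Heat shock protein and chaperone genes were examined in 3 acute myeloid leukemias, each from 1 mouse that lacked the microRNA miR-196b. The set holds 40 genes of the HSP70, HSP110, HSP90, chaperonin, small heat shock protein, HSP40, heat shock factor and co-chaperone families, taken by gene symbol from 28074 symbols in the deposited table. The set was selected on measured values in part, since a wide spread of Hspa1a and Hspa1b among these mice was known when it was chosen, so all results below are descriptions without a test. All 40 genes were listed, and 38 were expressed, meaning a mean of at least 1 TPM, a transcript level that is corrected for transcript length and relative to all transcripts of the sample; Hspb8 and Cryab were below that level. The 3 leukemias form 1 group. Their genotype is given as miR-196b-/-, Dnmt3a fl/fl, Flt3 ITD/ITD, Mx1Cre, while the sample titles name the Dnmt3a state as +/-. Dnmt3a is a DNA methyltransferase, Flt3 ITD is an internal tandem duplication that activates the receptor kinase Flt3, and Mx1Cre is a recombinase under an interferon-inducible promoter that is active in blood cells and in other tissues. Spleen cells came from moribund mice and were enriched for c-Kit, a receptor of blood progenitors, with magnetic beads; no age or interferon-inducing agent is given. Control leukemias with miR-196b belong to another series and were not analysed here, so no effect of the loss of miR-196b was measured. Mice are numbered 1 to 3 by accession order, and the number only names a mouse.

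Chaperones bind unfolded or partly folded proteins and keep them from clumping. HSP70 proteins do this in cycles driven by ATP, with HSP40 (J-domain) proteins delivering clients and speeding ATP use, and with HSP110 proteins exchanging the nucleotide; HSP90 then acts on clients that are nearly folded, among them many kinases. When unfolded proteins accumulate, heat shock factor 1 binds inverted repeats of the unit GAA, the heat shock element, and raises transcription of a subset of these genes, while other members are made at all times.

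The promoters of the genes that varied most and held a match to this element are shown first. The sequence was not used in choosing the genes. Heat shock genes are known for this element, so matches among them are a description and not separate support for its role. The sequences are from RefSeq, build GRCm38.p6, 5′ to 3′ on the strand of the gene, and capitals mark each match to GAANNTTC or TTCNNGAA, each of which is its own reverse complement, so that 1 search covers both strands. Hspa1a and Hspa1b encode the stress-inducible HSP70. They lie 10120 bases apart on the minus strand of chromosome 17, and the 250 bases before their starts (chr17:34972157-34972406 for Hspa1a and chr17:34959239-34959488 for Hspa1b) differ at 3 positions, none in the marked match.
Hspa1a: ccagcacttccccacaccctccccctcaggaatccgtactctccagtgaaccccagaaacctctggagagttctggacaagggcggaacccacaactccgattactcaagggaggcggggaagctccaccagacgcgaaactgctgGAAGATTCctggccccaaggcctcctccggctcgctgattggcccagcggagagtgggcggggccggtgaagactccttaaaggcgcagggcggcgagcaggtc
Hspa1b: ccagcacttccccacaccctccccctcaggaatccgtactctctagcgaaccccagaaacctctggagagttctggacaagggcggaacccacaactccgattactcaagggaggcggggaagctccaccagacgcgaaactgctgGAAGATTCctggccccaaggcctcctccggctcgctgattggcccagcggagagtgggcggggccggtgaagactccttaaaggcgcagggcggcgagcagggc
Hspb1, which encodes the small heat shock protein HSP27 (HSP25 in mouse), carries a pair of separate matches in the stretch shown (chr5:135887782-135887849, plus strand).
Hspb1: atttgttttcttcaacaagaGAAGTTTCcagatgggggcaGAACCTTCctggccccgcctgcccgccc
For the other genes with a wide range over the mice and a match, at most 30 bases around it are shown. They are Hsph1 (chr5:149636280-149636308, minus strand), Hspe1 (chr1:55088053-55088082, plus), Dnaja1 (chr4:40722336-40722359, plus), Dnaja4 (chr9:54699461-54699484, plus) and Dnajb4 (chr3:152193844-152193867, minus). The marked bases of Hsph1 lie after the annotated start, and those of the others before an annotated start. For Dnaja4 and Dnajb4 this start lies inside the annotated span of the gene, and the other window of each gene held no match. Hsph1 and Dnaja4 each held a further match before the start that is not shown.
Hsph1: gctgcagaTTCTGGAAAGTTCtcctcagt
Hspe1: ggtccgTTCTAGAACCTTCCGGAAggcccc
Dnaja1: agcctctaGAAAATTCtacgaggc
Dnaja4: acctccgcGAACGTTCtgggccta
Dnajb4: gttcgctgTTCTAGAAagtacaga
For contrast, matches also stood near the starts of genes whose levels hardly differed between the mice. Shown are Dnajb6 (chr5:29735844-29735872, plus strand) and Chordc1 (chr9:18292260-18292288, plus). Chordc1 held a further match that is not shown.
Dnajb6: agctccgaGAATCTTCCGGAAcgctagac
Chordc1: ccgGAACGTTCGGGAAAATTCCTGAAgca

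Of the 38 expressed genes, 10 spanned at least 1 log2 unit (2-fold) between the highest and the lowest mouse on the log2(TPM + 1) scale. That was 26.3% of the set, beside 8.57% of all 15181 expressed genes. Hspa1a and Hspa1b, whose spread was known when the set was chosen, are among the 10; with the pair summed as 1 gene the count was 9 of 37 (24.3%), and with both left out, a choice made after seeing the data, it was 8 of 36 (22.2%). They were Hspa1a, Hspa1b, Hsph1, Hsp90aa1, Hspe1, Hspb1, Dnaja1, Dnaja4, Dnajb1 and Dnajb4. In the typical member the spread was not wide: the median SD over the 3 mice was 0.20 log2 units in the set and 0.21 in all expressed genes. The wide spread therefore sat in 10 genes, and the other 28 expressed members ranged over less than 1 unit. Dnajb4 stood just inside this limit with a range of 1.03 and Dnajb5 just outside it with 0.85.

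**Figure D1:**
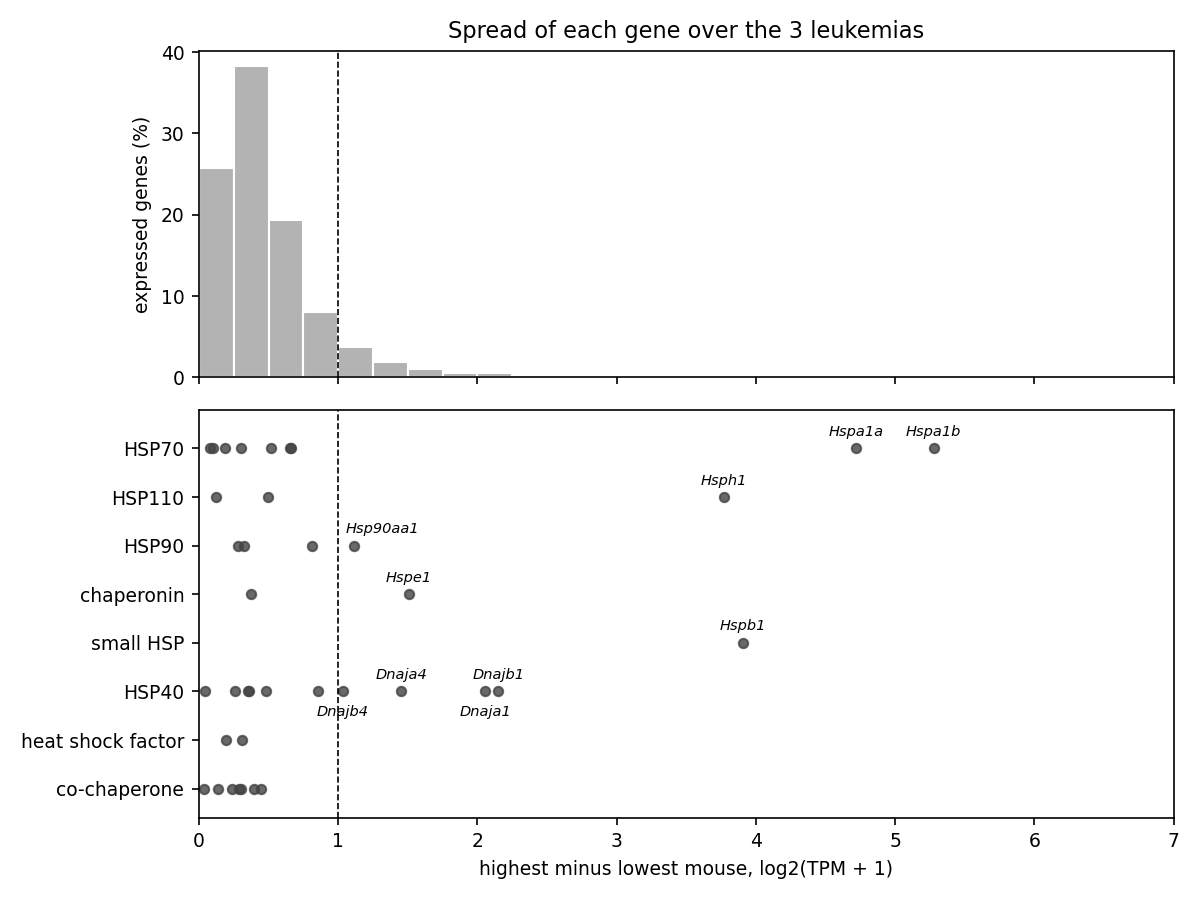
Spread of each gene over the 3 leukemias, as highest minus lowest mouse on the log2(TPM + 1) scale. The upper panel gives the percentage of all 15181 expressed genes in each bin and the lower panel 1 point for each expressed member by family; the dashed line marks 1 log2 unit, which 10 of 38 members reach.

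Mouse 1 stood apart: without it, 2 members (Hspb1 and Dnaja4) ranged over at least 1 log2 unit, beside 2.96% of expressed genes. Of the 38 genes, 7 (18.4%) were at least 1 log2 unit lower in mouse 1 than in each of the other mice, beside 1.13% of all expressed genes: Hspa1a, Hspa1b, Hsph1, Hspe1, Hspb1, Dnaja1 and Dnajb1. With Hspa1a and Hspa1b summed these were 6 of 37 (16.2%), and with both left out 5 of 36 (13.9%). None was that much higher in mouse 1, beside 1.22%. No member was at least 1 unit lower or higher in mouse 2 than in both other mice, beside 0.343% and 0.356%, and none was lower in mouse 3 by that much, beside 0.56%. Hspb1 and Dnaja4, 5.26% of the set, were at least 1 unit higher in mouse 3 than in both others, beside 0.738%. By order alone, 21 of 38 members (55.3%) had their lowest level in mouse 1, beside 24.4% of all expressed genes. The highest level lay in mouse 3 for 26 members, beside 20.3% of all expressed genes, in mouse 1 for 9, beside 48.6%, and in mouse 2 for 3, beside 31.1%. Summed over the set, the share also differed: all 40 genes together made up 0.815% of the summed TPM in mouse 1, 1.36% in mouse 2 and 1.53% in mouse 3. With the mice scaled to a common upper quartile, which moved them by -0.08, 0.01 and 0.06 log2 units in turn, the lowest level lay in mouse 1 for 24 members and for 5458 of the 15181 expressed genes. After this scaling the highest level lay in mouse 3 for 29 members and for 4620 of the 15181 expressed genes. The tissue was sequenced in bulk, so fewer cells of a type and less RNA per cell cannot be told apart.

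**Figure D2:**
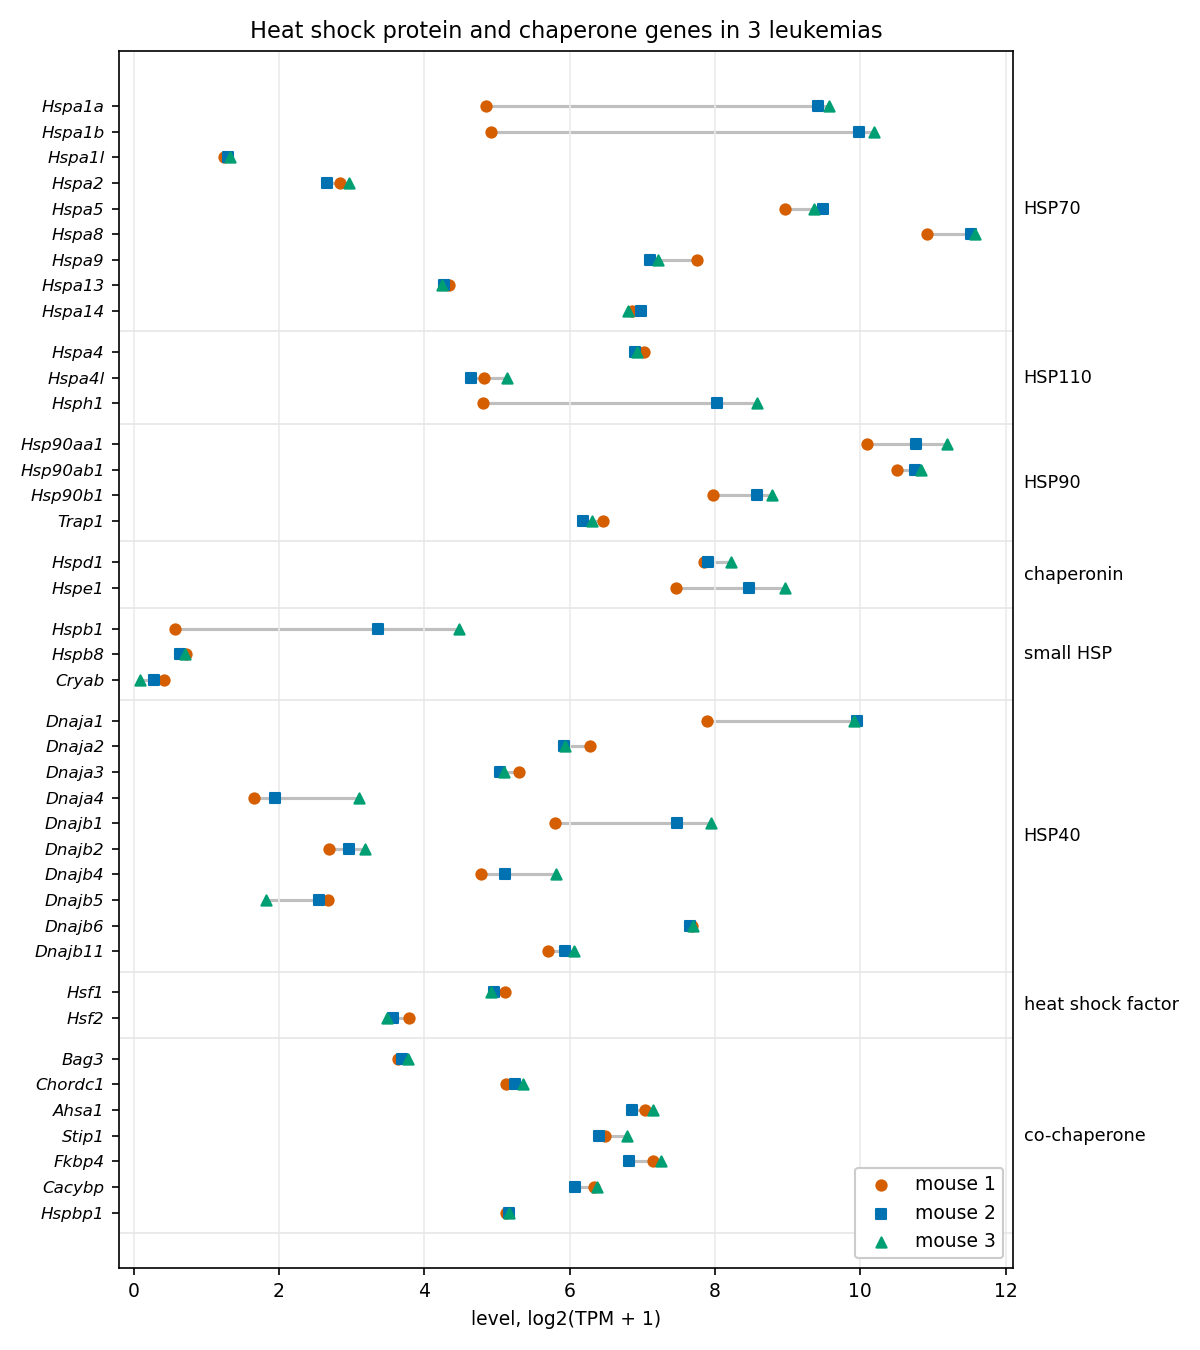
Level of each of the 40 genes in each mouse on the log2(TPM + 1) scale, grouped by family, with a grey line from the lowest to the highest mouse. The long lines belong to Hspa1a, Hspa1b, Hsph1 and Hspb1, with mouse 1 at the low end of each.

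The inducible HSP70 genes gave the widest difference of the set. Hspa1a was at 27.9 TPM in mouse 1, 686 in mouse 2 and 762 in mouse 3. Hspa1b was at 29.1, 1011 and 1167 TPM. The coding sequences match at 1918 of 1929 bases (99.4%), so reads can be assigned to either gene and the sum is the safer value. The sum was 57.1 TPM in mouse 1, 1696 in mouse 2 and 1929 in mouse 3, with a mean of 1227 ± 1020 TPM (SD, n = 3). Mice 2 and 3 lay close to each other, 1.14-fold apart, and were 29.7-fold and 33.8-fold above mouse 1, a range of 5.05 log2 units. On the strand opposite to Hspa1a, and overlapping its exons, the gene Gm20481 followed the same order at 3.73, 54.6 and 83.1 TPM. Whether the quantification used strand is not given in the sources used here, so reads from this overlap cannot be told apart. Hspa1l, the neighbouring HSP70 gene known mainly from testis, lies 546 bases from Hspa1a and matches its coding sequence at 82.9%, yet it stayed between 1.37 and 1.50 TPM.

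The constitutive HSP70 genes differed much less. Hspa8, which encodes the HSC70 of resting cells, was the most abundant member of the set at 1930, 2937 and 3049 TPM in mice 1 to 3, a range of 0.66 log2 units. It was lowest in mouse 1 as well, but mice 2 and 3 were 1.52-fold and 1.58-fold above it. Hspa5, the HSP70 of the endoplasmic reticulum also known as BiP, was at 500, 716 and 660 TPM. Hspa9, the mitochondrial HSP70, went the other way and was highest in mouse 1, at 215 TPM against 137 and 147. Hspa13, a microsomal HSP70, and Hspa14, which works at the ribosome, ranged over 0.10 and 0.18 log2 units, and Hspa2, known from testis, stayed between 5.34 and 6.83 TPM. As a result the make-up of the family differed: Hspa1a and Hspa1b were 2.01% of all HSP70 TPM in mouse 1, 30.1% in mouse 2 and 32.6% in mouse 3, while Hspa8 was 67.9%, 52.1% and 51.5%.

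**Figure D3:**
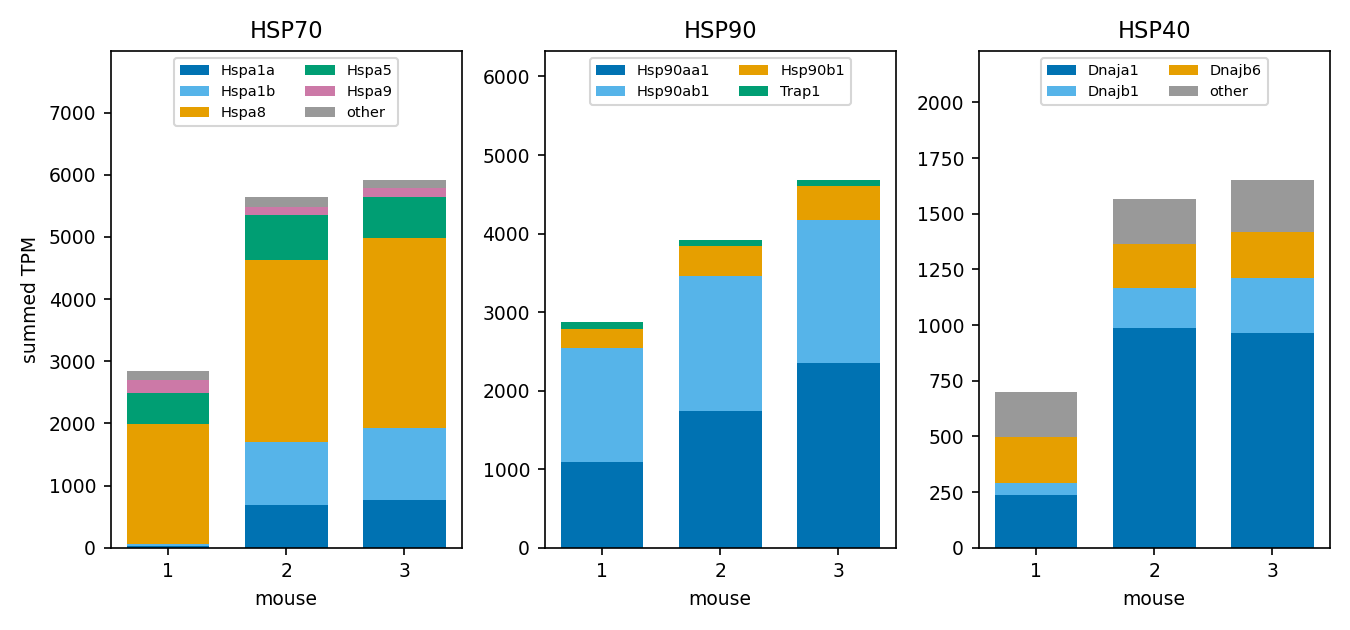
Summed TPM of the HSP70, HSP90 and HSP40 families in each mouse, stacked by gene, with the smaller genes of HSP70 and HSP40 pooled as other. The blue Hspa1a and Hspa1b segments are 2.01% of the HSP70 bar in mouse 1 and 32.6% in mouse 3, and Dnaja1 is the base of the HSP40 bar.

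Among the HSP110 genes, Hsph1, which encodes the stress-inducible nucleotide exchange factor HSP105, was at 27.0 TPM in mouse 1, 260 in mouse 2 and 381 in mouse 3, a range of 3.77 log2 units. Its relatives did not share this pattern: Hspa4 was at 129, 118 and 121 TPM and Hspa4l at 27.4, 24.1 and 34.4 TPM. Hsph1 thus went from the least of the family in mouse 1, with 14.7% of its TPM, to the most in mice 2 and 3, with 64.6% and 71.1%.

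Of the 3 small heat shock protein genes, Hspb1 was at 0.487 TPM in mouse 1, 9.24 in mouse 2 and 21.3 in mouse 3. Its range, 3.91 log2 units, was the widest after Hspa1a and Hspa1b, but it rests on a low level, and mice 2 and 3 also differed by 1.12 units. Hspb8 stayed between 0.551 and 0.647 TPM and Cryab, the alpha-B crystallin, between 0.0613 and 0.332 TPM, so neither reached 1 TPM in any mouse.

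HSP90 was abundant in every mouse. The cytosolic pair consists of Hsp90aa1, which is stress-inducible, and Hsp90ab1, which is made at all times. Hsp90aa1 was at 1086, 1746 and 2349 TPM in mice 1 to 3, a range of 1.11 log2 units, and Hsp90ab1 at 1453, 1719 and 1819 TPM, a range of 0.32. The order within the pair turned: Hsp90aa1 was 0.747 times Hsp90ab1 in mouse 1, 1.02 times in mouse 2 and 1.29 times in mouse 3. Hsp90b1, the HSP90 of the endoplasmic reticulum, was at 251, 381 and 441 TPM, and Trap1, that of mitochondria, at 87.4, 71.9 and 78.0 TPM. Trap1, like Hspa9, was highest in mouse 1.

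The mitochondrial chaperonin is a barrel of Hspd1 (HSP60) closed by a lid of Hspe1 (HSP10). Hspe1 was at 175 TPM in mouse 1, 352 in mouse 2 and 499 in mouse 3, a range of 1.51 log2 units. The range was 1.45 when its 3 listed similar copies, at 90.6% to 92.0% identity, were added. A copy at 99.0% identity was not listed. Hspd1 was at 230, 239 and 299 TPM, a range of 0.38. The ratio of Hspe1 to Hspd1 was 0.760, 1.47 and 1.67 in turn. The pair starts back to back on chromosome 1, and the Hspe1 sequence shown above, with its 3 overlapping matches, also lies inside 1 of the promoter windows of Hspd1. A shared stretch with the motif thus stood beside a wide range in Hspe1 and a narrow one in Hspd1. The annotated exons of the pair overlap on opposite strands.

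Of the 10 HSP40 genes, 4 ranged over at least 1 log2 unit. Dnaja1, a main J-domain partner of HSP70 in the cytosol, was at 237 TPM in mouse 1, 988 in mouse 2 and 967 in mouse 3. Dnajb1, the classic HSP40 of the heat shock response, was at 54.9, 177 and 247 TPM. Both were low only in mouse 1, with ranges of 2.06 and 2.15 log2 units; exons of Dnaja1, as of Dnaja4, overlap those of a gene on the opposite strand. Dnaja4 was at 2.14, 2.83 and 7.60 TPM and Dnajb4 at 26.6, 33.5 and 55.4 TPM. In these genes mouse 2 lay nearer to mouse 1 and only mouse 3 was high, so the HSP40 genes did not share 1 order of mice. Dnajb5 was the reverse, with 5.39, 4.88 and 2.54 TPM and its lowest level in mouse 3. Dnajb6, known for keeping polyglutamine proteins from aggregating, was at 204, 200 and 207 TPM, a range of 0.04. Dnaja2 (76.6, 59.8 and 60.4 TPM) and the mitochondrial Dnaja3 (38.6, 32.0 and 33.3 TPM) were highest in mouse 1. Dnajb2 and Dnajb11, the latter a J-domain partner of Hspa5, ranged over 0.48 and 0.36 log2 units. Dnaja1 was 33.8% of all HSP40 TPM in mouse 1 and 63.1% and 58.5% in mice 2 and 3.

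The heat shock factors and the co-chaperones differed less between the mice than these chaperones did. Hsf1, the main activator of the heat shock response, was at 33.7, 30.0 and 29.3 TPM and Hsf2 at 12.9, 10.9 and 10.2 TPM. Both were highest in mouse 1, as were 48.6% of all expressed genes. Transcript levels do not show the activity of Hsf1, which is known to be set by its trimer formation and modification. None of the 7 co-chaperones ranged over 1 log2 unit. Fkbp4, an HSP90 partner in steroid receptor complexes and the most abundant of them by its mean, was at 141, 112 and 153 TPM. Ahsa1, which speeds ATP use by HSP90, was at 130, 116 and 141 TPM, and Stip1, which links HSP70 to HSP90, at 89.0, 83.4 and 110 TPM. Bag3 and Chordc1, known targets of heat shock factor 1, were at 11.5, 12.0 and 12.7 TPM and at 33.9, 36.8 and 40.1 TPM. Hspbp1, a nucleotide exchange factor, and Cacybp ranged over 0.04 and 0.30 log2 units. All 7 had their highest level in mouse 3, beside 20.3% of all expressed genes. With the upper quartiles made equal, all 7 were again highest there, beside 4620 of the 15181 expressed genes. Some of these differences were small, as for Hspbp1 at 34.8 TPM in mouse 2 and 34.9 in mouse 3.

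By the place where the proteins work, 9 of 29 expressed genes of the cytosol and nucleus ranged over at least 1 log2 unit, 1 of 5 of mitochondria (Hspe1) and 0 of 4 of the endoplasmic reticulum, beside 8.57% of all expressed genes. With so few genes in the last groups, their counts do not set them apart from that share. The 4 genes of the reticulum, Hspa5, Hsp90b1, Hspa13 and Dnajb11, summed to 822, 1175 and 1185 TPM in mice 1 to 3.

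RefSeq gave a promoter window, 250 bases before to 50 after the start, for 33 of the 40 genes. Of the 9 genes with a range of at least 1 log2 unit and a window, 8 (88.9%) held a match to GAANNTTC or TTCNNGAA, and Dnajb1 did not; Hsp90aa1 was without a window. Of the 23 expressed genes with a smaller range and a window, 5 (21.7%) held one: Hspd1, Dnajb6, Fkbp4, Bag3 and Chordc1. Among all 27025 genes with a window the share was 17.0%. Within only the 250 bases before the start, the counts were 8 of 9 and 3 of 23, beside 14.5% of all genes. The longer run of alternating units, GAANNTTCNNGAA or TTCNNGAANNTTC, was found in 2 of 9 genes (Hsph1 and Hspe1), in 3 of 23 (Hspd1, Dnajb6 and Chordc1) and in 0.662% of all genes; a match of this kind also counts as a match of the shorter one. Within only the 250 bases before the start, the longer run was in 1 of 9 and 2 of 23 genes, beside 0.514% of all genes. Some genes have more than 1 window, and a match in any of them was counted, so such genes had more chances of a match. Dnaja1, Dnaja4 and Dnajb4 of the wide-range genes, and Hspd1 of the others, each also had a window without a match. Near-identical copies such as Hspa1a and Hspa1b are not separate observations. Both are among the 8 with a match, and their spread was known when the set was chosen. A match is a string of letters and was not tested for binding.

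Among the other genes of the pathway, few ranged over at least 1 log2 unit, as did 8.57% of all expressed genes. The lists are too small for their counts to stand apart from that share. None of the 8 subunits of TRiC, the cytosolic chaperonin that folds actin and tubulin, ranged over 1 log2 unit, and all 8 were highest in mouse 1, as were 48.6% of all expressed genes. With the upper quartiles made equal, 7 of 8 were highest there, beside 5410 of the 15181 expressed genes. Tcp1, the most abundant of them, was at 406, 302 and 325 TPM. The 5 listed prefoldin genes, which hand clients to TRiC, also stayed within 1 unit, and Pfdn5, the most abundant, was at 189, 245 and 266 TPM. Among 22 other co-chaperones of HSP70 and HSP90 only Fkbp5, an HSP90 partner and known glucocorticoid target, passed 1 unit, at 253 TPM in mouse 1 against 48.8 and 43.8, the opposite direction to Hspa1a. Ptges3, or p23, the most abundant of that list, was at 259, 213 and 249 TPM. Of 17 expressed genes in the list for the wider heat shock response, 2 passed 1 unit. They were Zfand2a, also known as AIRAP, at 74.7, 211 and 251 TPM, and Tfec at 12.8, 7.50 and 17.1 TPM. The place of Tfec in that response was not tested. Zfand2a was thus lowest in mouse 1, like the inducible chaperones.

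Other measures moved with mouse 1 too, and their part in the chaperone values was not tested. Of all expressed genes, 24.4% were lowest in mouse 1 and 48.6% highest there, and the marker counts below stand beside these shares. Most of the lists are small, so their counts are descriptions. All 8 late neutrophil markers were lowest in mouse 1, summing to 2491, 6482 and 21498 TPM; mice 2 and 3 thus differed 3.32-fold in this sum and 1.14-fold in Hspa1a plus Hspa1b. Of 20 immediate early genes, which are known to respond quickly to stimuli such as cell handling, 10 ranged over at least 1 log2 unit, beside 8.57% of all expressed genes. Of the 20, 14 were lowest in mouse 1, beside 24.4%, and 16 highest in mouse 2, beside 31.1%, with sums of 3407, 6665 and 4360 TPM. The 8 B cell markers summed to 49.4, 93.2 and 128 TPM, with 4 of 5 expressed ones lowest in mouse 1, and the 8 dendritic cell markers to 553, 1027 and 692 TPM, with 6 of 8 lowest there. The 10 T and NK cell markers summed to 188, 138 and 184 TPM, most of it Nkg7 (153, 101 and 143 TPM), while 5 of 8 expressed ones were lowest in mouse 1. The 7 listed monocyte markers summed to 306, 255 and 600 TPM, most of it Ly6c2 (291, 229 and 559 TPM), while 3 of 4 expressed ones were lowest in mouse 1. The sums hide opposite orders in the 8 megakaryocyte markers, which summed to 110, 91.2 and 119 TPM: Itga2b was at 49.0, 15.5 and 18.2 TPM and Pf4 at 6.73, 20.4 and 51.0 TPM. The 6 mast cell and basophil markers summed to 131, 47.8 and 52.4 TPM, with 4 of 5 expressed ones highest in mouse 1. The 8 listed erythroid markers summed to 60.1, 42.8 and 113 TPM. The 8 stroma markers summed to 43.5, 41.4 and 44.8 TPM, most of it Pecam1 (41.8, 39.1 and 42.5 TPM). Only Pecam1 among these 8 reached a mean of 1 TPM, and Dcn was listed at 0 in every mouse. The 8 leukemic progenitor markers summed to 2263, 1768 and 2972 TPM, and none was lowest in mouse 1 (1 was with the upper quartiles made equal). Of these, Kit, the marker used for the enrichment, was at 139, 149 and 133 TPM, and Elane, the only one with a range of at least 1 log2 unit, at 410, 271 and 736 TPM.

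**Figure D4:**
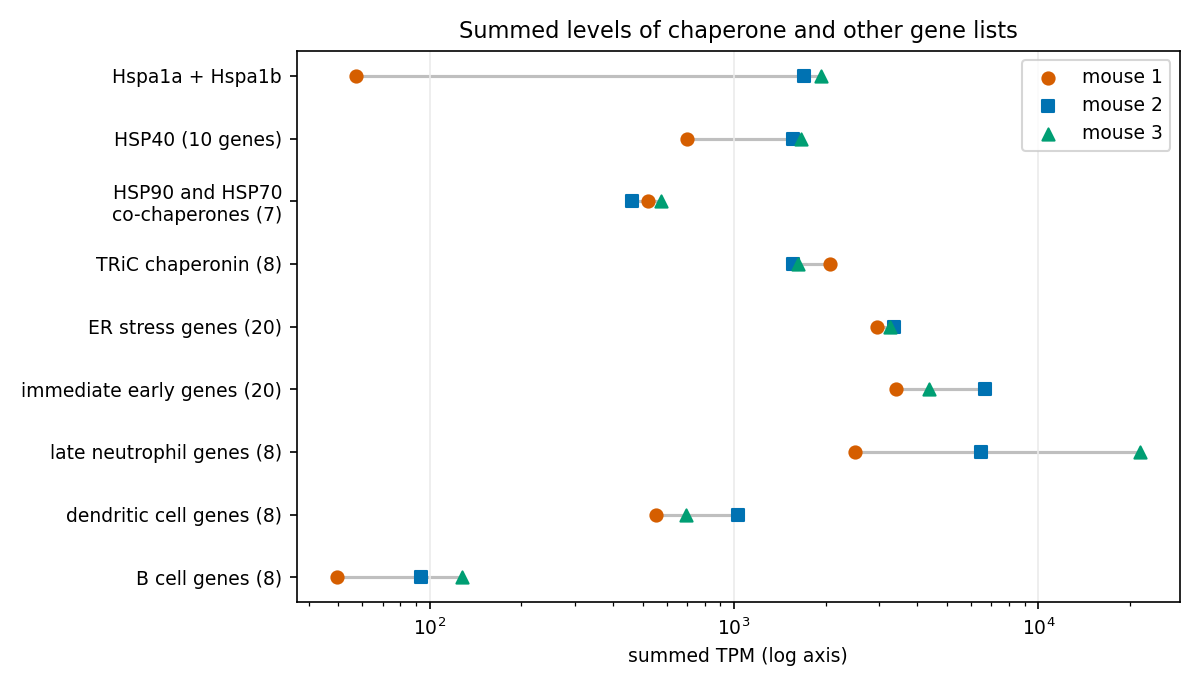
Summed TPM of chaperone families and other gene lists in each mouse on a log axis, with the number of genes in brackets. Hspa1a plus Hspa1b is low in mouse 1 and nearly equal in mice 2 and 3, whereas the late neutrophil sum goes from 2491 through 6482 to 21498 TPM.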

How the data were processed

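RNA of c-Kit-enriched leukemic spleen cells from 3 mice was sequenced as paired 150-nucleotide reads, per the labels' protocols, which name both ribosomal RNA depletion and an mRNA kit. The deposited table of the authors was read as TPM, because its columns are linear and sum to 929731, 927169 and 928490, although its name speaks of log2 FPKM. The submitters' processing notes name kallisto and mm10, without version or role; filters and use of strand are not given in the sources used here. TPM keeps no read depth, so the depth behind each value is unknown, and no interval or detection floor is given. Of 28987 rows, 795 without a symbol (0.532% to 0.608% of the summed TPM) and 27 with symbols turned into dates were left out, and 90 symbols on several rows were summed, Hspa14 among them. The values of 3 further samples in the table come from a different series and stayed out of every step.

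Levels were compared as log2(TPM + 1), a scale on which differences of low genes are understated. The main counts of members were set beside the same share of all symbols with a mean of at least 1 TPM. The labels call the mice independent, and with 1 group no test or p-value was computed. The members and the other lists were chosen with earlier results of these data known. Values in every mouse are given for members with a range of at least 1 log2 unit, the most abundant of each family and those next to that limit; other lists are represented by the genes past it, or counted, and the most abundant one, except that 1 such gene is not reported here. Similar copies, at 90% identity or more over at least 50% of the coding sequence, were found with blastn 2.17.0 on GENCODE M21. Promoters were those of RefSeq (GRCm38.p6). Scripts ran in Python 3.11.15 with pandas 2.3.3, scipy 1.17.1, numpy 2.4.6 and, for plots, matplotlib 3.10.9; the counting was checked on simulated data. The alternatives tried were a pseudocount of 0.1, a minimum mean of 5 TPM, no minimum, upper-quartile scaling, Hspa1a and Hspa1b summed as 1 member, leaving out each mouse and, added after the data were seen, leaving out both Hspa1a and Hspa1b.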

Additional observations from a re-analysis of the deposited data

How the results depend on the processing

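The wide ranges rest on mouse 1. Leaving out each mouse in turn gave 2 to 10 members with a range of at least 1 log2 unit. In the whole group there were 10, beside 8.57% of all expressed genes. Without mouse 1 these were Hspb1 and Dnaja4, beside 2.96% of expressed genes, so the share of all genes fell too. Without mouse 2 there were 10, beside 5.52%. Without mouse 3 there were 7, beside 4.67%, and Dnaja4, Dnajb4 and Hsp90aa1 no longer reached this range. Leaving out a mouse moved the range of Hspa1a plus Hspa1b between 0.185 and 5.05 log2 units, with 0.185 without mouse 1, and the median SD of the members between 0.119 and 0.234, with 0.119 without mouse 1. The count of members at least 1 unit lower in mouse 1 was 7 to 10 without mouse 2 or 3, and has no value without mouse 1. With a mouse left out, mouse 1 is compared with only 1 other mouse, so this rule is easier to meet. The shares of 5.52% and 4.67% above count a difference in either direction. The share of all expressed genes lower in mouse 1 was not computed for these settings. The median level over the members, 5.99 log2 units (SD 0.44, n = 3), was 5.82 to 6.24 with a mouse left out and 6.63 with a minimum mean of 5 TPM. A pseudocount of 0.1 gave 11 members with a range of at least 1 unit, Dnajb5 being added, beside 13.1% of expressed genes. Upper-quartile scaling kept the same 10, beside 8.63%. Summing Hspa1a and Hspa1b gave 9 such members, 6 of which were at least 1 unit lower in mouse 1; leaving both out, added after seeing the data, gave 8 and 5. Of 76 recomputed ranges of single genes, 68 moved by less than the SD over the mice, and the 8 others belonged to genes with narrow ranges. No paired analysis was possible because the 3 leukemias make up 1 group. Depth is unknown, which limits values near 1 TPM, such as Hspb1 in mouse 1.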

Other observations

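Of 27 expressed genes for other DNAJ proteins, only Dnajc28 ranged over at least 1 log2 unit, beside 8.57% of all expressed genes. Dnajc28 was at 6.77 TPM in mouse 1, 21.2 in mouse 2 and 11.5 in mouse 3. Dnajc8, the most abundant of these genes, was at 136, 153 and 145 TPM. Among 20 genes of endoplasmic reticulum stress, Atf3 (75.9, 280 and 119 TPM) and Trib3 (1.88, 0.468 and 2.09 TPM) passed that limit, beside the same 8.57%. Atf3, which is also counted among the immediate early genes, was highest in mouse 2, unlike Hspa1a and Hspa1b. Calr, a chaperone of glycoproteins in the reticulum, was at 688, 756 and 829 TPM.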
